A study of Mus musculus
Mus spretus with 18 samples.

Results

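The genes for 10 splicing regulators were followed across F1 hybrid mouse tissues and a drug treatment that blocks the spliceosome: the SR protein genes Srsf1, Srsf2, Srsf3, Srsf4, Srsf5, Srsf6, Srsf7 and Srsf11, and the paralogs Tra2a and Tra2b. Their rows were taken by gene symbol from every table, without a filter on measured values. The genes themselves were chosen with earlier results of these data known. They make up 10 of the 38924 genes with a transcript level, 92 of the 120601 autosomal skipped exon events, 58 of the 83272 distinct alternative exons and 3 of the 2158 retained intron events.

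The mice were F1 hybrids of a C57BL/6J mother and a SPRET/EiJ father, so that each library held transcripts of both parental alleles in 1 shared cellular environment. Cortex, heart, kidney, lung, spleen and liver came from the same 2 animals at 8 weeks of age, so that the replicates are few and shared between organs. Embryonic stem cells (ESC) came from 2 clones of the same cross, with 2 libraries for each of the 7 tissues. The liver data were obtained from these animals in an earlier study, and their labels carry the strain names C57BL/7J and C57BL/8J. A fibroblast line from the F1 hybrid was treated for 4 h with 0.1 µM pladienolide B, a small molecule that binds the SF3B complex and impairs branch point recognition, or with the solvent DMSO alone, with 2 libraries each. The fibroblasts are 1 line, so the p-values of that comparison measure only the spread between its cultures or libraries, and with 2 against 2 samples an exact permutation test cannot go below p = 0.333 (two-sided).

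SR proteins are RNA-binding proteins with a tail rich in arginine and serine. They bind exonic enhancers, help the spliceosome to define exons, and many also take part in mRNA export and translation. Tra2a and Tra2b are related factors that bind purine-rich exonic enhancers. Genes of both families carry poison exons, which are highly conserved cassette exons that bring a premature stop codon into the transcript when they are included. Such transcripts are degraded by nonsense-mediated decay (NMD), and several SR proteins and Tra2b promote inclusion of the poison exon in their own transcripts, which lowers their own level. No reading frame was available here, so the exons below are named by length and position and no exon was called a poison exon. Inclusion that NMD removes is not seen in steady-state RNA.

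Exon inclusion is given as PSI, the share of transcripts that include the exon, computed from the junction reads of each form divided by the effective length of that form. An event is an exon together with its flanking exons, and 1 exon can have several events. Summed over all skipped exon events, 45055286 to 144154268 junction reads were counted per library, of which 10362124 to 46565133 were assigned to the C57BL/6J allele and 10129390 to 42791636 to the SPRET/EiJ allele. Events can share junctions, so a read can enter these sums more than once. Of 24 marker genes of the 8 tissues or cell types, 23 were higher in both libraries of their own group than in any other library. The exception was Dcn in fibroblasts, with 32.7 to 46.8 TPM (a transcript level per length, scaled to the whole library) against 683 TPM in heart. The ESC clones stood apart from each other, with a median absolute difference of 0.395 in log2 TPM over genes and of 0.0807 in PSI over events of intermediate inclusion, against 0.0801 to 0.211 and 0.0330 to 0.0481 in the other tissues. In these bulk samples, fewer cells of a type and less RNA per cell cannot be told apart.

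All 58 exons had 20 or more junction reads in both replicates of at least 1 of the 9 groups. In 38 of them the mean PSI was over 0.95 in every group measured, and in 3 it was under 0.05 in every group. The remaining 17 exons, in 8 of the genes, had a mean PSI from 0.05 to 0.95 in at least 1 group, and the length of 8 of the 17 was a multiple of 3. Srsf5 and Tra2a had no exon in that range.

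Among the exons of low inclusion were 1 each in Srsf2, Srsf3, Srsf6 and Tra2b, described first, and several in Srsf11. In the genome build mm10, Srsf2, which encodes a founding member of the family, had an exon of 104 nt at chr11:116851648-116851751 (minus strand). Srsf3, for the smallest SR protein and an adaptor of mRNA export, had one of 456 nt at chr17:29039454-29039909 (plus strand). Srsf6 had one of 268 nt at chr2:162932815-162933082 (plus strand), which shares its start with a form of 165 nt. Tra2b had one of 276 nt at chr16:22258986-22259261 (minus strand). Of these lengths, 104 and 268 nt are not multiples of 3, whereas 456 and 276 nt are.

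The Srsf2 exon was the lowest in ESC among the tissues. Its PSI in replicates 1 and 2 was 0.107 and 0.106 in cortex, 0.122 and 0.0850 in liver, 0.109 and 0.0945 in heart, 0.119 and 0.0636 in spleen, 0.0829 and 0.0886 in kidney, 0.0875 and 0.0738 in lung, and 0.0485 and 0.00773 in ESC. Both ESC clones lay below all 12 organ libraries. Cortex and heart each lay above kidney and lung, whereas liver and spleen overlapped every other organ. The test across tissues did not pass (range of means 0.0779, adjusted p = 0.0889, quasi-binomial test with moderated dispersion and Benjamini-Hochberg adjustment). Fibroblasts in DMSO were lower than the organs as well, at 0.0185 and 0.0137.

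The Srsf3 exon was spliced in at about the same share in most organs. Its PSI was 0.131 and 0.0977 in spleen, 0.0944 and 0.118 in lung, 0.107 and 0.0947 in kidney, 0.107 and 0.0783 in liver, 0.0867 and 0.0937 in cortex, and 0.0495 and 0.0488 in heart. Heart was the lowest organ in both replicates. The ESC clones gave 0.210 and 0.0321, which enclosed all organ values, and the test across tissues did not pass (range of means 0.0721, adjusted p = 0.998). Without ESC the range was 0.0649 and the adjusted p was 0.0452, still under the difference of 0.1 required for a call.

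The Tra2b exon also differed most between the ESC clones, at 0.292 and 0.0875. Its PSI was 0.164 and 0.105 in cortex, 0.146 and 0.116 in spleen, 0.104 and 0.0799 in heart, 0.0745 and 0.0769 in kidney, 0.0791 and 0.0650 in liver, and 0.0510 and 0.0604 in lung. Cortex and spleen lay above kidney, lung and liver in both replicates. The test across tissues did not pass (range of means 0.134, adjusted p = 0.738), and without ESC the range was 0.0792 with an adjusted p of 0.00594, below the required difference.

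Inclusion of the Srsf6 exon differed between tissues. Srsf6 encodes an SR protein with a second, divergent RNA recognition motif. Its PSI was 0.238 and 0.321 in lung, 0.234 and 0.200 in spleen, 0.189 and 0.133 in liver, 0.164 and 0.148 in cortex, 0.0867 and 0.0780 in kidney, 0.0620 and 0.0846 in heart, and 0.0905 and 0.0355 in ESC. Both lung libraries lay above all others, and those of spleen lay above the rest. Kidney, heart and ESC overlapped. The range of the tissue means was 0.217 (adjusted p = 0.00106) and 0.207 without ESC (adjusted p = 0.000134). The shorter form of 165 nt stayed between 0.00697 and 0.0566 (range of means 0.0343, adjusted p = 0.0430). Both forms share their upstream junction. In lung the shorter form had 85 and 77 inclusion reads, against 632 and 1018 for the 268-nt form. In spleen these were 126 and 161 against 761 and 775. Most inclusion reads of the 268-nt form there came from its downstream junction, and inclusion by each junction was not tested.

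Srsf11 had the exons with the widest range between tissues. Srsf11 encodes an SR-related protein that contacts factors at both splice sites. Between the exons ending and starting at chr3:158022950 and chr3:158026725 (minus strand) it carried alternative exons of 117 nt (chr3:158023243-158023359), 109 nt (chr3:158024123-158024231) and 64 nt (chr3:158024698-158024761). Their events share junctions and are not independent measurements.

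The 117-nt exon had its highest PSI in cortex. Its PSI was 0.454 and 0.415 in cortex against 0.231 and 0.260 in kidney, 0.222 and 0.238 in lung, 0.245 and 0.195 in liver, 0.215 and 0.216 in spleen, 0.206 and 0.176 in heart, and 0.0802 and 0.146 in ESC. Cortex lay above all other tissues and ESC below them, without overlap, and the other 5 tissues lay between 0.176 and 0.260. In cortex 84 and 44 of the 561 and 499 inclusion reads used the junction to chr3:158026725, against 338 and 352 skipping reads. In lung these were 87 and 88 of 355 and 301, against 623 and 481. Most inclusion reads in both came from the junction at chr3:158022950. Whether cortex stands apart at each junction was not tested. The range of means was 0.321 (adjusted p = 0.000785), and 0.243 without ESC (adjusted p = 6.60e-05).

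The 64-nt exon, measured with its flanks at chr3:158024231 and chr3:158026725, had its highest PSI in cortex. Its left flank in this event is a longer exon, chr3:158023409-158024231, which ends at the same splice site as the 109-nt exon. Its PSI was 0.838 and 0.901 there, against 0.274 and 0.526 in liver, 0.230 and 0.220 in kidney, 0.205 and 0.185 in spleen, 0.103 and 0.286 in ESC, and 0.162 and 0.112 in lung. Cortex stood clear of every other library, whereas liver and ESC each had widely spaced replicates. Skipping reads of this event come only from transcripts that use the splice site at chr3:158024231. Its PSI is therefore not a share of all Srsf11 transcripts. The range of means was 0.732 (adjusted p = 7.23e-05), and heart had too few reads to be included. The 109-nt exon was lower throughout, from 0.0213 in ESC to 0.126 in kidney (range of means 0.0947, adjusted p = 0.00708, under the required difference).

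Altogether 39 events in 34 exons of the 10 genes had 20 or more reads in the tissues, and 3 were called (adjusted p under 0.05 and a range of means of at least 0.1): those of Srsf6 (268 nt) and Srsf11 (117 and 64 nt). Among all 47963 events tested, 7.53% were called. The median range of means was 0.0126 over the events of the 10 genes and 0.0145 over all events. The same 3 events were called without ESC.

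**Figure D1:**
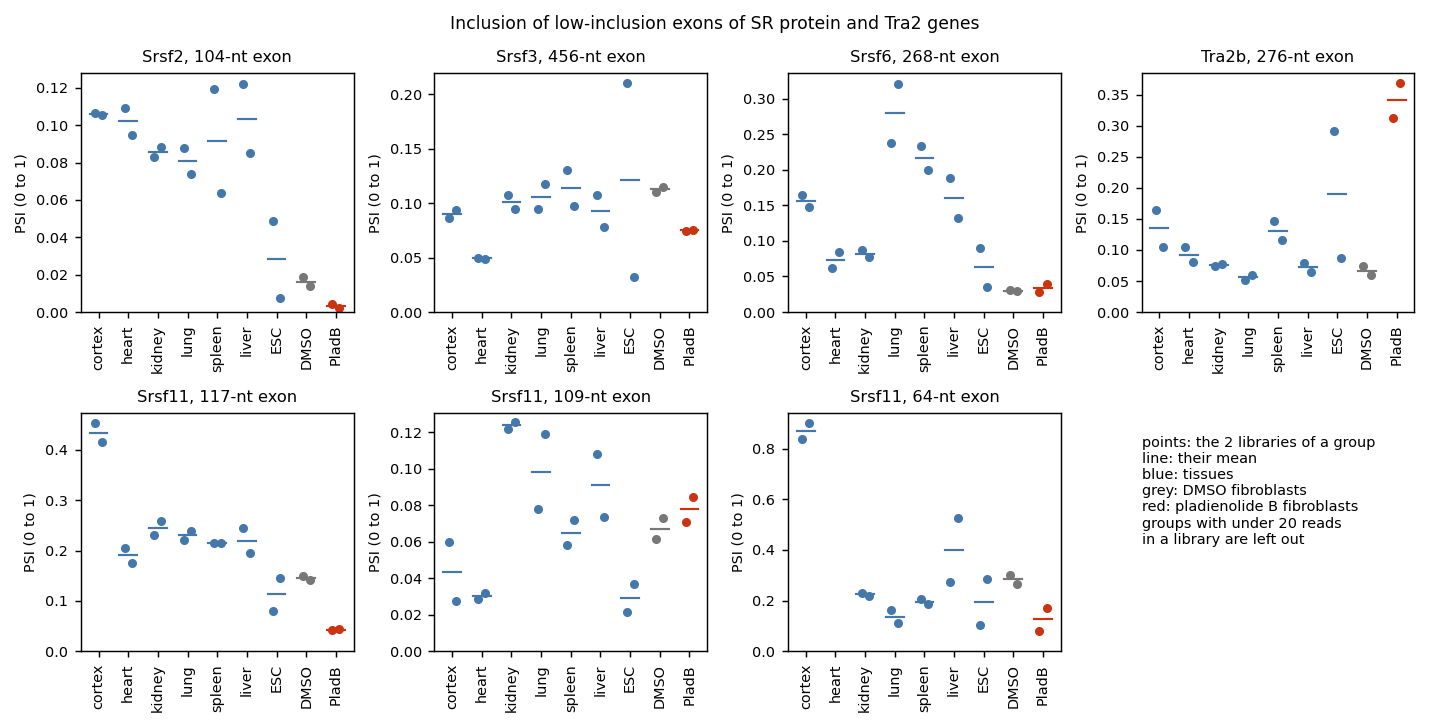
PSI (0 to 1, scaled separately in each panel) of 7 exons of Srsf2, Srsf3, Srsf6, Tra2b and Srsf11 by group, with 1 point per library and a line at the mean of the 2 libraries. Cortex stands apart for the Srsf11 exons of 117 and 64 nt, lung and spleen are highest for the Srsf6 exon, and the Tra2b exon is highest in pladienolide B fibroblasts, at 0.313 and 0.369.

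Other exons of the family were included in most transcripts. Srsf7, for an SR protein with a zinc knuckle that acts in mRNA export, had a 36-nt exon (chr17:80202169-80202204, minus strand) with a PSI between 0.858 and 0.923 in all 18 libraries. Srsf1, for the founding member of the family, had a 187-nt segment (chr11:88049412-88049598, plus strand) with a PSI between 0.884 and 0.987, whose lowest value came from 1 of the ESC clones and whose other clone was at 0.975. Srsf4 had an exon of 207 nt (chr4:131884276-131884482, plus strand) with a mean PSI of 0.868 ± 0.187 (SD, n = 2) in heart and of 0.905 to 1 in the other groups measured, and one of 198 nt (chr4:131886107-131886304) with means of 0.95 to 0.982. None of these events was called between tissues.

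At gene level each of the 10 genes differed between tissues, as 98.9% of the 21925 genes tested did (limma on log2(TPM + 0.1), adjusted p under 0.05 and a range of at least 1 log2 unit). The median range of the tissue means was 2.27 log2 units over the 10 genes and 4.26 over all genes. From the highest to the lowest tissue, the ratio of mean TPM ran from 2.65 for Srsf5 to 8.69 for Tra2a.

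ESC had the highest mean TPM for Srsf1, Srsf3, Srsf7, Tra2a and Tra2b, spleen for Srsf2, Srsf4, Srsf5 and Srsf6, and cortex for Srsf11. For Srsf3 the ESC rank rested on clone 2, with 92.8 and 217 TPM in the clones against 145 and 144 in spleen. For Srsf7 the clones, at 201 and 288 TPM, overlapped spleen at 210 and 205. Spleen in turn overlapped ESC for Srsf2 and lung for Srsf5. The lowest tissue was heart or liver for every one of them. Tra2b stood at 108 and 133 TPM in ESC, 66.1 and 67.5 in spleen, 39.7 and 38.8 in cortex, 41.2 and 36 in lung, 26.2 and 25.3 in kidney, 18.3 and 15.4 in liver, and 15.2 and 15.2 in heart. ESC and spleen were each clear of the rest, whereas cortex and lung overlapped. Tra2a, its paralog, ran from 23.3 and 27.5 TPM in liver to 210 and 232 in ESC. Srsf11 stood at 101 and 93.6 TPM in cortex, above 78.8 and 76.9 in ESC and 71.0 and 69.1 in spleen, and its lowest values were 19.8 to 21.7 in liver and heart, which overlapped.

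Srsf5, for an SR protein with a second RNA recognition motif, had the highest mean TPM of the 10 in each of the 6 organs, with 138 to 419 TPM over all tissue libraries. Srsf2 had 89.8 to 384 TPM. Srsf2 shares positions with Mfsd11 and Srsf4 with Gm12992 in the annotation, and reads on several genes were counted in fractions, so the levels of Srsf2 and Srsf4 are less certain.

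In ESC against the mean of the 6 organs, 5 of the 10 genes were called higher and 0 lower in limma, with 9 past the adjusted p alone and all of those higher. Among all genes, 35.7% were called higher and 25.0% lower. Tra2b was 2.02 ± 0.09 (SE) log2 units higher, Tra2a and Srsf7 were each 1.61 higher, Srsf1 1.38 and Srsf3 1.22. With all libraries scaled to the same median, Srsf3 was 0.86 higher and no longer called, leaving 4. Without ESC clone 2 the difference of Srsf3 was 0.60 and not called, also leaving 4, and without clone 1 Srsf2 joined the called genes at 1.29, whose difference was 0.42 without clone 2. The median over the 10 genes was 1.06 log2 units higher in ESC, against 0.34 over all genes.

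**Figure D2:**
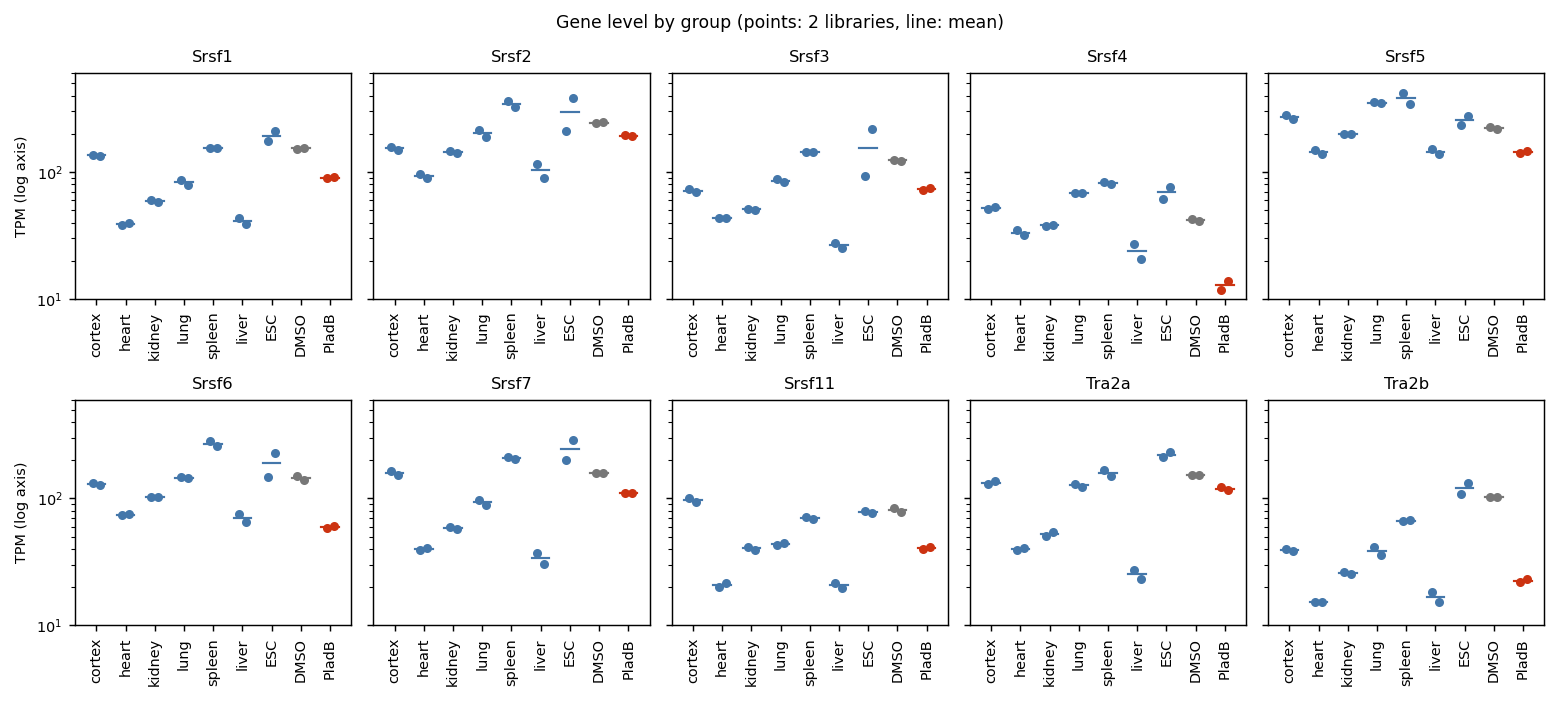
Gene level of the 10 genes in TPM (log axis) by group, with 1 point per library and a line at the mean of the 2 libraries. Liver and heart are lowest among the tissues, and Tra2b and Srsf4 fall furthest between DMSO and pladienolide B in the deposited TPM values.

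The order of tissues by PSI and by gene level was not the same. Over the 7 tissue means, Pearson's r between PSI and log2(TPM + 0.1) was 0.784 for the Tra2b exon, 0.649 for the Srsf3 exon, 0.350 for the Srsf6 exon and −0.615 for the Srsf2 exon, and over the 6 organs alone it was 0.519, 0.532, 0.624 and −0.522. These are descriptions of a few points that share libraries between both axes, and no test was made.

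Counted over all reads, the PSI of the Tra2b 276-nt exon was higher after pladienolide B, against the direction of most called events. In DMSO its PSI was 0.0743 and 0.0589, from 457 and 374 inclusion reads and 2848 and 2989 skipping reads. After pladienolide B it was 0.313 and 0.369, from 185 and 256 inclusion reads and 203 and 219 skipping reads. The groups did not overlap, and both treated values also lay above all 14 tissue libraries. The mean rose by 0.274 (adjusted p = 8.70e-08), from 0.0666 ± 0.0109 to 0.341 ± 0.0395 (SD, n = 2 each). Fewer reads of both forms were counted after treatment, with the larger drop in the skipping form. Reads assigned to an allele did not show the rise, with a PSI of 0.0396 in DMSO and 0.0455 after treatment. Of the inclusion reads, 30.7% were assigned in DMSO and 4.54% after treatment. The cause of this gap was not tested.

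Elsewhere in Tra2b, some events of exons with a PSI near 1 in DMSO had lower values. A 60-nt exon (chr16:22248436-22248495) had a PSI of 0.996 to 1 in DMSO in each of its 3 called events. After pladienolide B, its most read event stood at 0.834 and 0.910, a difference of −0.128 (adjusted p = 3.77e-06). The event with the next exon at chr16:22250865 stood at 0.879 and 0.872, a difference of −0.121 (adjusted p = 0.000472). The third event, with flanks at chr16:22246866 and chr16:22249050, stood at 0.573 and 0.609, a difference of −0.409 (adjusted p = 1.22e-07). A 74-nt exon (chr16:22247190-22247263) between the same flanks went from 1 and 1 to 0.822 and 0.743, a difference of −0.217 (adjusted p = 8.49e-07). It shares the skipping junction with the third event, so these are not independent. The most read event of the 74-nt exon, with the flank at chr16:22248436, had a mean PSI of at least 0.989 in each of the 3 groups measured. A 134-nt exon (chr16:22254984-22255117) went from nearly 1 to 0.952 and 0.929 (difference −0.0595, adjusted p = 2.24e-05), under the difference needed for a call.

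The transcripts of Srsf3 changed around its 456-nt exon. In the most read event, which joins to the exon starting at chr17:29040775, PSI went from 0.111 and 0.115 to 0.0744 and 0.0755, a difference of −0.0379 without overlap (adjusted p = 0.000229) that was too small for a call. With the downstream flank at chr17:29041207, PSI was 1 and 1 in DMSO and 0.544 and 0.431 after treatment, a difference of −0.513 (adjusted p = 3.38e-08). With the flank at chr17:29041384, it went from 1 and 1 to 0.883 and 0.762, a difference of −0.177 (adjusted p = 7.99e-05). In DMSO both events had the same 612 and 673 inclusion reads, which do not show that the exon was joined to either site. Their PSI of 1 reflects 0 skipping reads and not full inclusion of the exon. In both of these, transcripts that skipped the exon and ran to the downstream site were counted after treatment and not in DMSO.

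Among the 3 measured retained introns of the 10 genes, the longest contains that Srsf3 exon. The interval chr17:29038625-29041206 of 2582 nt was read as retained 659 and 671 times and as spliced 0 and 0 times in DMSO, and 706 and 1085 times against 89 and 156 times after pladienolide B. The retained share therefore went from 1 and 1 to 0.799 and 0.777, a difference of −0.212 (adjusted p = 3.25e-08). The interval holds the cassette exon, and whether reads of that exon were counted toward the retained form was not tested. Its spliced form uses the same junction as the skipping form of the exon event with the flank at chr17:29041207.

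Srsf5 had the other called intron. At chr12:80947866-80949094 (plus strand, 1229 nt), the retained share was 0.370 and 0.415 in DMSO and 0.0901 and 0.114 after pladienolide B, a difference of −0.290 (adjusted p = 4.39e-13). The neighbouring intron chr12:80947595-80947795 of 201 nt moved the opposite way, from 0.00233 and 0.00367 to 0.0787 and 0.0899 (difference 0.0813, adjusted p = 1.46e-12), which was under the required 0.1. Both introns gave values without overlap between the groups. Of the 3 introns, 2 were called, both lower. Among all 1802 introns tested, 3.0% were called lower and 35.2% higher.

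Srsf11 events moved in both directions after pladienolide B. Its 117-nt exon fell from 0.149 and 0.142 to 0.0425 and 0.0438, a difference of −0.103 (adjusted p = 2.42e-06). In transcripts that carry the 109-nt exon, with the flank at chr3:158024123, it fell from 0.856 and 0.853 to 0.628 and 0.412, a difference of −0.335 (adjusted p = 0.000349). The 64-nt exon fell from 0.301 and 0.266 to 0.0808 and 0.173, a difference of −0.157 (adjusted p = 0.0328).

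A 50-nt exon of Srsf11 (chr3:158021376-158021425) went from 0.999 and 1 to 0.905 and 0.888, a difference of −0.102 (adjusted p = 2.35e-07). The 109-nt exon rose in the event that joins it to the 117-nt exon, with flanks at chr3:158023359 and chr3:158026725. Inclusion reads of that event also count the junction at chr3:158026725, which does not require the 117-nt exon. There its PSI went from 0.611 and 0.661 to 0.861 and 0.809, which was 0.199 higher (adjusted p = 0.0294). In its most read event it stood at 0.0614 and 0.0728 in DMSO and at 0.0711 and 0.0848 after treatment. The calls of the 64-nt and 109-nt exons were the closest to the threshold, and with a dispersion prior that ignored depth their adjusted p was 0.0568 and 0.0509.

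Srsf4, another SR protein with a second RNA recognition motif, had 1 called exon, of 113 nt (chr4:131892081-131892193, plus strand). It went from 1 and 1 to 0.895 and 0.891, a difference of −0.107 (adjusted p = 0.000868). The remaining low-inclusion exons had small differences. The Srsf2 exon went from 0.0185 and 0.0137 to 0.00411 and 0.00242 (difference −0.0128, adjusted p = 0.00117, not called). The Srsf6 exon stood at 0.0311 and 0.0293 in DMSO and at 0.0281 and 0.0400 after treatment (difference 0.00384, adjusted p = 0.553). The Srsf7 exon (difference −0.0254, adjusted p = 0.143) and the Srsf1 segment (−0.0215, adjusted p = 0.0961) did not pass the test.

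In total 70 events in 51 exons of the 10 genes were tested and 13 events in 9 exons were called, 11 lower and 2 higher. Among all 54535 events tested, 8.26% were called lower and 0.171% higher. By the adjusted p alone, 33 events of the 10 genes were lower and 2 higher, against 19.2% and 0.526% of all events. The median difference was −0.0116 over the events of the 10 genes and −0.00524 over all events. Several of the 13 events share an exon or a junction.

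**Figure D3:**
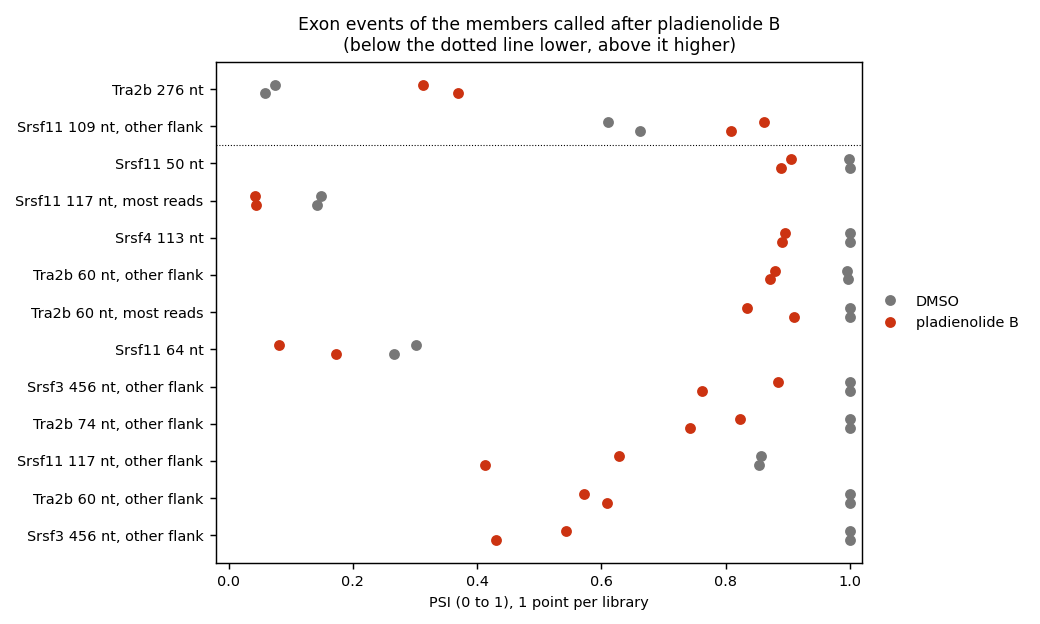
PSI (0 to 1) in DMSO (grey) and pladienolide B (red) fibroblasts for the 13 events called, with 1 point per library, ordered by difference, and the 2 events that rose above the dotted line. Treated and control points do not overlap in any of the 13, and 8 of the 11 lower events start at or close to 1.

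Gene level fell in the deposited TPM values for all 10 genes, although most fell by less than the median gene, and on a scale set to the same median 8 of the 10 were higher than in DMSO. Tra2b went from 101.9 and 101.7 TPM to 22.1 and 23.0, a difference of −2.17 ± 0.04 (SE) log2 units (adjusted p = 3.81e-06). Srsf4 went from 42.9 and 41.1 to 11.8 and 13.9 TPM (−1.71 ± 0.09, adjusted p = 3.40e-05). Srsf6 went from 150.1 and 140.1 to 58.3 and 60.4 TPM (−1.29 ± 0.05, adjusted p = 1.15e-05). These 3 were called lower on the deposited scale.

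The other 7 genes passed the adjusted p with differences under 1 log2 unit. Srsf2 went from 244 and 247 to 195 and 192 TPM (−0.34 ± 0.03) and Tra2a from 154 and 153 to 122 and 117 TPM (−0.36 ± 0.04). Srsf7 (−0.53), Srsf5 (−0.62), Srsf3 (−0.75), Srsf1 (−0.77) and Srsf11 (−0.99) lay between these and the called genes. No treated library overlapped a control library for any of the 10.

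Among all 13577 genes tested, 53.8% were called lower, 4.19% higher, and 73.4% were lower by the adjusted p alone. The median difference was −0.76 over the 10 genes and −1.15 over all genes. With all libraries scaled to the same median, 4414 genes were called higher and 2575 lower, against 569 and 7304 on the deposited scale. On that scale Srsf2 (1.11) and Tra2a (1.08) were called higher, and Tra2b (−0.72) and Srsf4 (−0.26) were the ones that stayed lower, neither called. Direction at gene level therefore depends on the scaling for all but Tra2b and Srsf4.

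**Figure D4:**
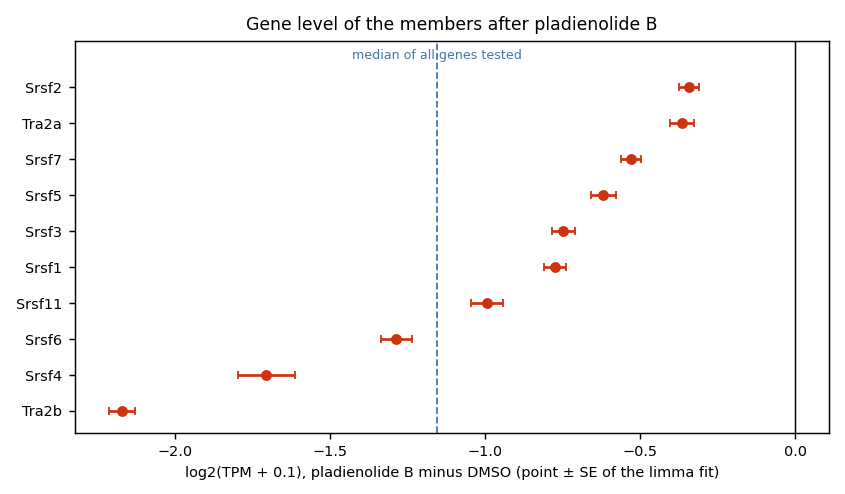
Difference between pladienolide B and DMSO fibroblasts in log2(TPM + 0.1) for the 10 genes, as points with the SE of the limma fit (2 libraries per group), with a dashed line at the median of all genes tested, −1.15. Tra2b, Srsf4 and Srsf6 lie below that line and the other 7 genes above it.

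Related genes were counted in the same comparison. Of 12 other SR family members and SR protein kinases (Srsf9, Srsf10, Srsf12, Srrm1, Srrm2, Clk1 to Clk4 and Srpk1 to Srpk3), 10 were tested after pladienolide B, and 8 were called lower with a median of −1.73 log2 units, where 53.8% of all genes were called lower. With libraries at the same median 0 were called higher and 1 lower by limma. Of 10 NMD factors, 8 were called lower with a median of −1.85, and at the same median 1 was called higher and 2 lower. In ESC against organs, 6 of the 12 SR genes were called higher and 1, Srpk3, lower, and 6 of the 10 NMD factors were called higher, where 35.7% of all genes were called higher and 25.0% lower. At the same median, 4 of the SR genes were called higher and 3 lower, and 6 NMD factors higher. By exon inclusion, 13 of 58 tested events of the SR list and 1 of 45 of the NMD list were called between tissues, which is 22.4% and 2.22% where 7.53% of all events were called. After pladienolide B, 19 of 83 and 8 of 76 were called lower, where 8.26% of all events were, and 1 event of the SR list was called higher, where 0.171% were. These shares are descriptions, with no test of either list.

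In most tests, inclusion differed little between the parental alleles. A mean PSI over 0.95 in every group, as in 38 of the 58 exons, leaves little room for a difference. A total of 217 tests were made, of 62 events of the 10 genes over the 9 groups, and 1 was called. The allelic difference was under 0.1 in 215 of them, with a median absolute difference of 0.00385, and 14 had an unadjusted p under 0.05. By the adjusted p alone 2 passed. With the library as a block, since both alleles share a library, 11 passed the adjusted p and again 1 was called. The share of all events called was 2.48% in DMSO fibroblasts, 1.91% in cortex, 1.75% in heart, 1.72% in lung, 1.70% in kidney, 1.69% in pladienolide B fibroblasts, 1.60% in spleen, 1.10% in liver and 0.0223% in ESC.

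The called event was the Tra2b 60-nt exon with flanks at chr16:22246866 and chr16:22249050 in pladienolide B fibroblasts. Its PSI was 0.945 and 0.970 on the C57BL/6J allele, from 25 and 46 reads, and 0.494 and 0.490 on the SPRET/EiJ allele, from 52 and 96 reads. The difference was 0.465 (adjusted p = 0.0216) and the alleles did not overlap, but the reads are few and the event is not tested when 50 reads are required. The most read event of the same exon, with flanks at chr16:22247263 and chr16:22249050, showed no such difference in these cells. There PSI was 0.791 and 0.925 on the C57BL/6J allele and 0.835 and 0.889 on the SPRET/EiJ allele, a difference of −0.00439. The 74-nt exon that shares its skipping junction had 0.957 and 0.944 on the C57BL/6J allele and 0.452 and 0.337 on the SPRET/EiJ allele (adjusted p = 0.0196). It was not called, because the allelic reads gave a PSI of 0.545 where all reads gave 0.782.

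Srsf2 and Srsf7 showed small allelic differences that mostly had the same sign. For the Srsf2 104-nt exon, PSI was lower on the C57BL/6J allele in 16 of 18 libraries. In cortex it was 0.119 and 0.108 on that allele against 0.168 and 0.158 on SPRET/EiJ, in kidney 0.0969 and 0.102 against 0.161 and 0.132, and in lung 0.0930 and 0.0738 against 0.153 and 0.115. In these 3 tissues the alleles did not overlap. The group differences ran from −0.0717 in spleen to −0.000860 in pladienolide B fibroblasts and none was called. In spleen the adjusted p was 0.424, and 1.58e-07 in a fit with the library as a block, where the difference remained too small for a call.

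For the Srsf7 36-nt exon, PSI was also lower on the C57BL/6J allele in 16 of 18 libraries, with group differences from −0.0841 in liver to 0.0455 in heart and no call. The Srsf3 456-nt exon was higher on the C57BL/6J allele in 15 of 18 libraries, with differences from −0.0132 to 0.0401 and no call. Libraries of different organs come from the same animals and those of fibroblasts from 1 line, so these counts are descriptions.

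**Figure D5:**
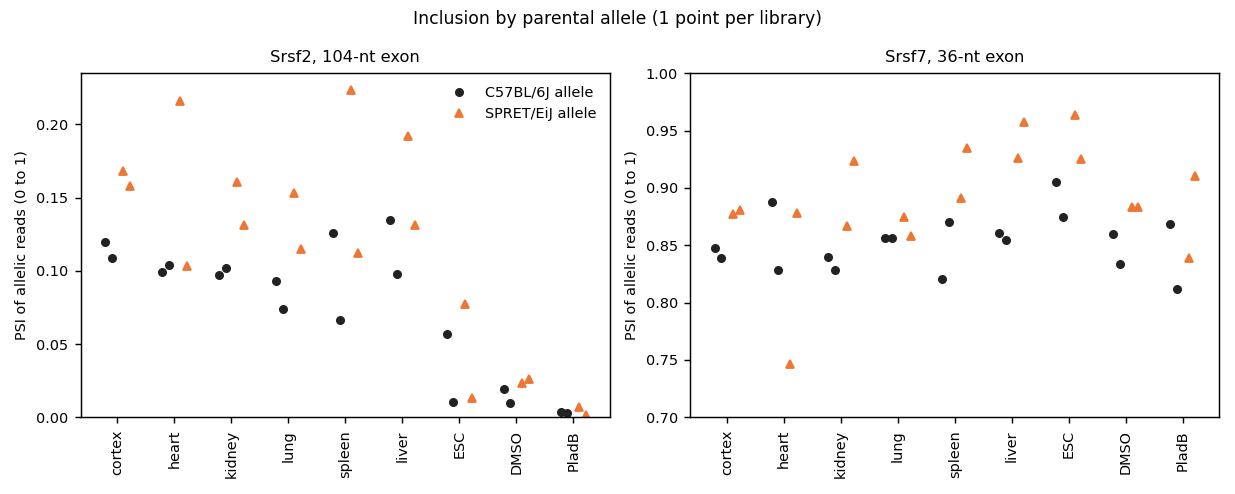
PSI from allelic reads (0 to 1, the axis of the right panel runs from 0.70 to 1) for the Srsf2 104-nt exon and the Srsf7 36-nt exon by group, with 1 point per library and allele. The C57BL/6J points are lower in 16 of 18 libraries for each exon.

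Reads that could be assigned to an allele were unevenly spread over the forms. For the Srsf6 268-nt exon, 3.45% to 49.6% of inclusion reads were assigned per group against 77.9% to 96.5% of skipping reads, and in 4 groups the allelic PSI was more than 0.1 from that of all reads. For the Tra2b 276-nt exon, 4.54% to 30.7% of inclusion reads were assigned against 18.5% to 53.0% of skipping reads. After pladienolide B its allelic reads gave a PSI of 0.0455 where all reads gave 0.343, so no allelic statement can be made for that exon in those cells. The Srsf2 exon had 77.7% to 100% of its inclusion reads and 61.4% to 90.9% of its skipping reads assigned.

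Whether pladienolide B changed an allelic difference could be tested for 19 events of the 10 genes. In the quasi-binomial fit 0 were called and 0 had an unadjusted p under 0.05. The largest change was 0.0465. Among all 13585 events tested, 0% were called. The Tra2b 60-nt event called between the alleles after treatment was not among the 19, nor was the 74-nt event that shares its skipping junction. In DMSO, all reads gave the 60-nt event 997 and 989 inclusion reads and the 74-nt event 1245 and 1323, with 0 skipping reads for both. Whether treatment changed the allelic difference of these 2 events was not tested.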

How the data were processed

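RNA was measured by strand-specific mRNA sequencing in 18 libraries. Per the paper's methods and the labels, the authors aligned reads with HISAT2 2.0.1 to mm10, counted splice junction reads with rMATS and computed TPM with featureCounts. The deposited tables hold, per event, lists of junction reads of 2 replicates for each form (all reads or allelic reads), effective lengths of the forms given as a score (up to 150 and 75 in tissues, 298 and 149 in fibroblasts), and deposited TPM per gene. Deposited inclusion levels, p-values and differences of the authors' comparisons were not used, nor were 50 columns of per-sample values that the labels did not map.

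PSI was (I/li)/(I/li + S/ls). Events needed 20 reads in every library compared, on autosomes. They were tested with a quasi-binomial model, whose dispersion was moderated with limma 3.58.1 (squeezeVar, trend on depth, floor 1) and trained on events with a fitted n·p·(1−p) of 5 or more. That rule replaced 1 that needed 10 reads of the rarer form, after the latter had given no calls in blocked fits; it is kept as an alternative. Calls needed an adjusted p under 0.05 (Benjamini-Hochberg over all events of the comparison) and a difference of 0.1, and allelic calls also a PSI of allelic reads within 0.1 of that of all reads. Gene level was fitted with limma (trend) on log2(TPM + 0.1) for genes with a TPM of 1 in at least 2 libraries, and calls needed 1 log2 unit. TPM keeps no depth, so gene-level values carry no counting interval. Both fits were tested on simulated data. Python 3.11.15, numpy 2.4.6, pandas 2.3.3 and R 4.3.3 were used.

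Groups came from the labels. The read lists carry no replicate names: the log2 ratio of the second to the first position correlated with that of TPM replicate 2 to 1 across genes (r = 0.679 to 0.973), and the list order was taken as the replicate order. The organs came from the same animals, but the labels do not say that a replicate number marks an animal. Replicate differences of 21 pairs of tissues correlated at −0.0980 to 0.0732 for PSI, over 0.1 in 0 pairs, and at −0.103 to 0.304 for log2 TPM, over 0.1 in 6 pairs, all between organs. In fibroblasts the correlations were 0.00392 and −0.136. Since not every pair was over 0.1, no block was used, and the blocked fits are alternatives. Alleles share a library, and the fit with that block is an alternative.

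Named were all 10 genes, up to 3 exons per gene by reads among those with a mean PSI of 0.05 to 0.95 in a group, all called events and all measured retained introns. The genes, the lists of related genes and the tests were chosen with earlier results of these data known. Gene symbols were matched to RefSeq (GRCm38.p6) for overlapping genes. Alternatives were a minimum of 10 or 50 reads, no depth trend, replicate blocks, left-out replicates, inclusion reads divided by 2, a pseudocount of 1, no TPM filter and scaling to the same median.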

Additional observations from a re-analysis of the deposited data

Results flagged for a closer look

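The allelic difference of the Srsf3 456-nt exon had the opposite sign in liver and in 7 other groups, in both libraries of each. PSI on the C57BL/6J allele minus that on the SPRET/EiJ allele was −0.0132 in liver, from 0.0395 and 0.0142 against 0.0400 and 0.0400. It was 0.0401 in ESC, 0.0390 in lung, 0.0291 in kidney, 0.0272 in spleen, 0.0249 in heart, 0.0185 in cortex and 0.0120 in pladienolide B fibroblasts. The difference between liver and the other groups was not tested, and in liver replicate 1 the alleles differed by less than 0.001. Liver had the fewest allelic reads for this event, 143 to 234 per library and allele. Groups of 2 libraries allow no test for a library that stands apart.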

How the results depend on the processing

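Of 71 counts of calls for the 10 genes recomputed under another setting, 69 stayed within 1.5 times the reported count. Both exceptions concern the allelic comparison, where the single call was absent with a minimum of 50 reads (0 calls, since that event has fewer) and 2 calls were made with no limit between allelic and all reads. Leaving out 1 replicate gave 3 calls across tissues, 10 to 12 after pladienolide B, 2 for introns, 1 for alleles, 10 at gene level across tissues, 4 to 6 in ESC against organs (added after seeing the data) and 3 to 4 at gene level after pladienolide B, where Srsf11 joined at −1.04 without DMSO replicate 2 and −1.02 without pladienolide B replicate 2. With TPM scaled to the same median, the difference in ESC against organs was −0.21 for Srsf5, and that after pladienolide B was 0.67 for Srsf1, 1.11 for Srsf2, 0.70 for Srsf3, 0.83 for Srsf5, 0.16 for Srsf6, 0.92 for Srsf7, 0.46 for Srsf11 and 1.08 for Tra2a. With a replicate block the counts for the 10 genes were the same as without it: 3, 13, 2, 1 and 0 for exons across tissues, exons and introns after pladienolide B, alleles and their change, and 10, 5 and 3 at gene level. In fibroblasts the crossed pairing also gave 3 calls at gene level. The prior that needed 10 reads of the rarer form, added after seeing the data, gave 4, 12, 2, 1 and 0 calls, and with no depth trend 11 events were called after pladienolide B. Over all events, the library block raised allelic calls from 478 to 929 in cortex, 292 to 571 in heart, 421 to 711 in kidney, 380 to 754 in lung, 347 to 589 in spleen, 149 to 369 in liver, 7 to 535 in ESC and 502 to 861 in pladienolide B fibroblasts, and the change in allelic difference from 0 to 5. A minimum of 50 reads lowered the calls after pladienolide B from 4600 to 3047. With no depth trend liver had 91 allelic calls, and with the earlier prior ESC had 62 and the change in allelic difference 5. The cause of these shifts was not tested.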

Other observations

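The ESC clones differed in both inclusion and level of these genes. Inclusion of the low-inclusion exons of Srsf2, Srsf3, Srsf6 and Tra2b was lower in clone 2, and that of the 3 exons of Srsf11 was higher; among 8108 events of intermediate inclusion, 55.6% were lower in clone 2. TPM was higher in clone 2 for 9 of the 10 genes, against 45.4% of 15141 genes. The median log2 ratio of clone 2 to clone 1 was 0.30 over the 10 genes and −0.06 over all genes. Each clone is 1 library, so no test was made.

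Each group has 2 libraries, and the fibroblasts are 1 line at 1 dose and 1 time. Low-inclusion exons rest on few inclusion reads, and a share of transcripts that decays quickly is not measured. Events of 1 gene share junctions.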
